A study of Mus musculus with 17 samples.

Results

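The 8 genes described here are the chains of the interleukin-10 (IL-10) receptor, the kinases bound to them, the transcription factor STAT3 and 3 genes known to be induced through it. They were chosen by symbol from a table of 35321 genes: Il10ra, Il10rb, Jak1, Tyk2, Stat3, Socs3, Bcl3 and Pim1. All 8 were among the 14920 genes with enough counts to be tested. Polyadenylated RNA had been sequenced from hematopoietic stem and progenitor cells, abbreviated HSPC, from which all blood lineages descend. They had been sorted from the bone marrow of wild-type C57BL/6J mice. The series title names impaired IL-10 receptor signalling and exhaustion of hematopoietic stem cells under inflammation as its subject.

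All groups were of the same wild-type strain, and age, sex and the number of mice behind a library are not given in the sources used here. The PBS group (5 libraries, titled day 0) had received phosphate-buffered saline into the peritoneum. No PBS library is titled 24 h or 72 h. In comparisons with PBS, effects of LPS and of time or collection therefore cannot be told apart. The LPS groups had received lipopolysaccharide, a molecule of the bacterial outer membrane used to provoke inflammation, and were taken at 24 h (3 libraries) or 72 h (3 libraries). The LPS with antibody groups had also received an antibody that blocks the IL-10 receptor and were taken at 24 h (3 libraries) or 72 h (3 libraries). The design text gives 5 micrograms of LPS and 100 micrograms of antibody, and the sample protocol gives the same figures in milligrams. No group received the antibody without LPS, so an effect of the antibody alone was not measured. The antibody acts on the receptor protein, so transcript levels do not check that it blocked the receptor. The labels do not say that libraries of a group came from separate mice, and the p-values measure only the spread between these libraries.

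IL-10 is an anti-inflammatory cytokine. Its receptor is built of the ligand-binding chain IL-10RA and the chain IL-10RB, which is shared with the receptors for IL-22 and type III interferons. IL-10RA carries the kinase JAK1 and IL-10RB carries TYK2, and ligand binding brings the kinases together, which leads to phosphorylation of STAT3. Phosphorylated STAT3 enters the nucleus and raises the transcription of genes such as Socs3, whose product inhibits JAK kinases. Signalling through this route is a matter of phosphorylation, which RNA levels do not report. JAK1, TYK2 and STAT3 also serve receptors for interferons and for cytokines of the IL-6 family, so their transcripts are not particular to IL-10.

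Il10ra lies on the minus strand at chr9:45253837-45269149 (GRCm38, GENCODE M21) and Il10rb on the plus strand at chr16:91406164-91425834. Jak1 lies at chr4:101152367-101265282 and Tyk2 at chr9:21104068-21131243, both on the minus strand. Stat3 at chr11:100885098-100939540, Socs3 at chr11:117966079-117970047 and Bcl3 at chr7:19808462-19822770 are on the minus strand, and Pim1 at chr17:29490753-29496112 is on the plus strand. Counts were given per gene, so reads of all exons of a gene were pooled. Il10rb shares 569 exonic bases, 14.9% of its exons, with Gm21970 on the same strand. Pim1 shares 488 exonic bases (14.5%) with the antisense gene Gm26885, Tyk2 shares 554 (8.07%) with the antisense gene 1700084C06Rik, and Bcl3 shares 161 (6.51%) with the antisense gene Gm16175. How reads from such shared bases were assigned is not given in the sources used here, so the levels of these 4 genes are uncertain to that extent.

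STAT factors bind palindromic sites of the form TTCNNNGAA, and Socs3 is a classical STAT3 target, so the windows upstream of the starts of these genes were read for those letters. In RefSeq (GRCm38.p6), 6 of the 8 genes matched, with 7 windows of 250 bases before a start. Il10ra and Il10rb were not among them. The motif, whose reverse complement is the same pattern, occurred in 1 of the 7 windows, that of Socs3, and in 2306 of 32851 windows of the same length (7.02%). The match lay from 154 to 146 bases before the RefSeq start of Socs3. The Socs3 window (chr11:117969367-117969616, minus strand) is shown with the match in capitals, beside the Stat3 window (chr11:100939541-100939790, minus strand), in which these letters were not found. In GENCODE, Socs3 starts further upstream, at chr11:117970047, so this window and its match lie inside the gene in that annotation. In the Socs3 window 77 bases lie in an exon of that gene in GENCODE, and none in a UTR. A match of letters is a description of the sequence and not evidence of binding.
Socs3 upstream: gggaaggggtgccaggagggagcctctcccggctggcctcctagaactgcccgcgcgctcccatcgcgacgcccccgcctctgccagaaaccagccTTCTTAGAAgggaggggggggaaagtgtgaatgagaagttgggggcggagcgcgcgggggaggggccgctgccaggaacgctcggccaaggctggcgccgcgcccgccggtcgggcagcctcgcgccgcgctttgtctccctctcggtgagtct
Stat3 upstream: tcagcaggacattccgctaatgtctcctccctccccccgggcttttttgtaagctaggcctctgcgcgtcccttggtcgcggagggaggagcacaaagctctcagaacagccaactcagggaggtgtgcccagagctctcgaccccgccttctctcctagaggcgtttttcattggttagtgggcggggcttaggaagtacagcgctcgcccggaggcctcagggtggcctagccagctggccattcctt

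Total counts ran from 10516722 to 16006001 per library. Library 1 of LPS at 24 h had the lowest scaling factor by trimmed mean of M-values (TMM), 0.799, against 0.947 to 1.12 in the others. The sorted cells carried the 10 HSPC markers looked for, with none at 0 in a whole group. Their summed level was 1610 to 2440 CPM (a gene's count scaled to the TMM-adjusted library total) with PBS and 936 to 1110 CPM with LPS at 24 h. Markers of other cell types were present too: the 13 monocyte-macrophage markers summed to 407 to 2870 CPM, the 8 B-lymphoid markers to 59.3 to 1330 CPM and the 9 neutrophil granule genes to 2530 to 17600 CPM. PBS library 2 had the highest monocyte-macrophage sum, 2870 CPM against 644 to 1230 CPM in the other PBS libraries. In these bulk samples, fewer cells of a type and less RNA per cell cannot be told apart.

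Per kilobase of exon in the PBS libraries, Pim1 had the highest level of the 8 genes, 59.5 ± 15.3 CPM per kb (SD, n = 5), and Jak1 followed with 36.4 ± 3.87. The receptor chains stood near STAT3 on this scale: Il10rb had 18.6 ± 4.13, Stat3 17.2 ± 0.95 and Il10ra 15.9 ± 4.24 CPM per kb (SD, n = 5). These 3 did not differ beyond their spread. Tyk2 had 12 ± 1.02, and Bcl3 and Socs3 had the lowest levels, 4.26 ± 0.379 and 3.66 ± 0.904 CPM per kb (SD, n = 5), within each other's spread. The ligand itself was at the edge of detection: Il10 counts were 0 to 8 in single libraries, and the gene was not tested.

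**Figure D1:**
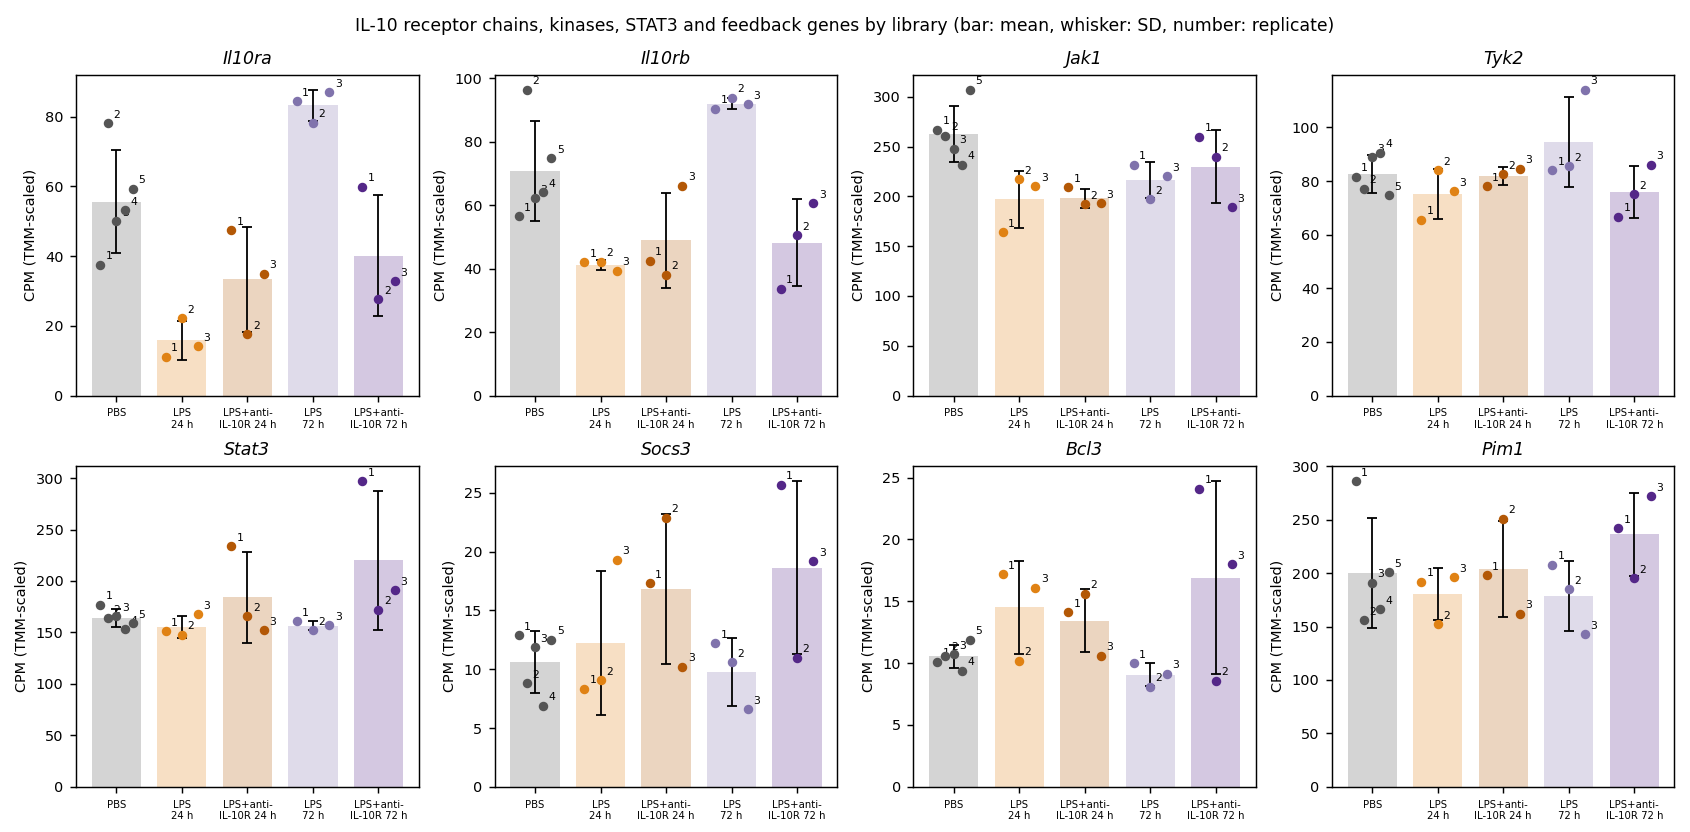
TMM-scaled CPM of the 8 genes in each of 17 libraries, with a linear axis from 0 for each gene. Points are libraries, numbers are replicate numbers from the titles, bars are group means and whiskers are SD. Il10ra and Il10rb have their lowest group means with LPS at 24 h and their highest with LPS at 72 h, and Stat3 is highest in library 1 of each antibody group.

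Changes below are log2 ratios from edgeR's quasi-likelihood test in 1 fit of all 17 libraries. A gene was called when its p-value, adjusted by the Benjamini-Hochberg method over the 14920 tested genes, was below 0.05. The comparisons share libraries: all 4 comparisons with PBS use the same 5 PBS libraries, and each LPS group enters several contrasts. Of the 72 combinations of 8 genes and 9 comparisons, 9 were called.

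With LPS at 24 h both receptor chains and Jak1 were lower than with PBS. Il10ra was 37.6, 78.1, 50, 53.2 and 59.4 CPM in PBS libraries 1 to 5 and 11.2, 22.2 and 14.1 CPM in the LPS libraries 1 to 3 at 24 h. Every LPS library lay below every PBS library. The log2 change was -1.81 (SE 0.343, edgeR adjusted p = 0.00136), 3.5-fold lower.

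Il10rb was 56.5, 96.3, 62.2, 64.1 and 74.7 CPM with PBS and 42, 42.2 and 39.3 CPM with LPS at 24 h. The LPS libraries lay close together and below every PBS library. The log2 change was -0.78 (SE 0.213, edgeR adjusted p = 0.0101).

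Jak1, the kinase on IL-10RA, was 267, 261, 248, 232 and 307 CPM with PBS and 164, 217 and 210 CPM with LPS at 24 h. Library 1 was the lowest, and the groups did not overlap. The log2 change was -0.42 (SE 0.13, edgeR adjusted p = 0.0198). This call did not hold with the replicate number as a block (-0.39, adjusted p = 0.067), without PBS library 5 (-0.35, adjusted p = 0.056) or without LPS library 1 (-0.29, adjusted p = 0.127).

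Among all tested genes, 37.6% were called in this comparison, 19.1% higher and 18.5% lower, so 3 of 8 called genes is close to the background. The libraries of both groups were apart for 3 of the 8 genes and for 42.8% of all tested genes. Both receptor chains were called in all 8 fits that left out 1 library, with changes of -2.13 to -1.61 for Il10ra and -0.85 to -0.65 for Il10rb. The other 5 genes were not called. Their log2 changes were -0.13 for Tyk2, -0.07 for Stat3, 0.21 for Socs3, 0.46 for Bcl3 and -0.15 for Pim1, with adjusted p-values from 0.17 to 0.757 in edgeR.

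Levels of some markers moved with the receptor chains. In the same comparison 9 of the 13 monocyte-macrophage markers and 7 of the 10 HSPC markers were called lower, and none higher. The HSPC marker Ly6a, not called, went the other way, with 32.6 to 85.2 CPM with PBS and 108 to 222 CPM with LPS at 24 h. Of the 8 T and NK markers 3 were called lower, and of the 9 neutrophil markers 0 were called. The monocyte-macrophage sum was 644 to 2870 CPM with PBS and 407 to 784 CPM with LPS at 24 h, so the groups overlapped in that sum. The complement gene C1qa, a marker of resident macrophages, was 22 to 265 CPM with PBS and 2.2 to 3.71 CPM with LPS at 24 h. The B-lymphoid sum was 381 to 1330 CPM with PBS and 71.6 to 93.6 CPM with LPS at 24 h. Of the 8 B-lymphoid markers 3 were called lower. The erythroid sum was 429 to 674 CPM with PBS and 486 to 987 CPM with LPS at 24 h. Of the 8 erythroid markers 1 was called lower. The part of these cell types in the fall of Il10ra and Il10rb was not tested.

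Between 24 h and 72 h after LPS both receptor chains rose. Il10ra was 84.5, 78.3 and 87 CPM in the LPS libraries 1 to 3 at 72 h, all above the highest value at 24 h, 22.2 CPM. The log2 change was 2.39 (SE 0.373, edgeR adjusted p = 0.000429), 5.25-fold higher. Il10rb was 90.4, 93.8 and 91.7 CPM at 72 h, also apart from the 24 h libraries, and its log2 change was 1.16 (SE 0.234, edgeR adjusted p = 0.0021). These were 2 of 8 genes called, both higher, against 31.1% of all tested genes called, 14.7% higher and 16.4% lower. Libraries of both times were apart for 4 of the 8 genes and for 45.4% of all genes. Both calls held in all 6 fits that left out 1 library, with 2.22 to 2.71 for Il10ra and 1.11 to 1.19 for Il10rb.

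The values of the other 6 genes at 72 h of LPS were not called different from those at 24 h. Tyk2, the kinase on IL-10RB, was 65.6, 84.1 and 76.2 CPM at 24 h and 84.1, 85.6 and 114 CPM at 72 h. The lowest 72 h library and the highest 24 h library were equal to the digits given, and the log2 change was 0.33 (edgeR adjusted p = 0.0874). With upper-quartile scaling it was 0.44 and called (adjusted p = 0.0283). Bcl3, which encodes an IκB family protein, was 17.2, 10.2 and 16.1 CPM at 24 h and 9.99, 8.11 and 9.14 CPM at 72 h. Its groups were just apart, with a log2 change of -0.67 (edgeR adjusted p = 0.0911). It was called by voom with quality weights (-0.7, adjusted p = 0.0286) and without LPS library 2 at 24 h (-0.88, adjusted p = 0.0405). These were 1 of 7 other settings and 1 of 6 fits that left out 1 library, where the edgeR adjusted p reached 0.26. Stat3 had a log2 change of 0.01 and Pim1 of -0.01.

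Levels of markers also differed between these times. Il10ra was 11.2 to 22.2 CPM at 24 h and 78.3 to 87 CPM at 72 h. C1qa was low at both times, 2.2 to 3.71 CPM at 24 h and 0.439 to 3.13 CPM at 72 h. Of the 13 monocyte-macrophage markers, Csf1r and Cx3cr1 were called higher at 72 h than at 24 h and Marco lower. Of the 10 HSPC markers, 6 were called higher and none lower, and their sum was 936 to 1110 CPM at 24 h and 1660 to 2220 CPM at 72 h. The B-lymphoid sum was 71.6 to 93.6 CPM at 24 h and 147 to 388 CPM at 72 h. The erythroid sum was 486 to 987 CPM at 24 h and 69.4 to 338 CPM at 72 h. Called higher were 1 of 8 B-lymphoid and 3 of 8 T and NK markers, and called lower were 2 of 8 erythroid markers. The part of these shifts in the rise of the receptor chains was not tested.

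Against PBS, the libraries at 72 h of LPS gave no call among the 8 genes in edgeR. Only 0.0201% of all tested genes were called. Before adjustment p was below 0.05 for 1 of the 8 genes, Jak1, with a log2 change of -0.28, which limma's voom called (adjusted p = 0.0349), while DESeq2 called 0. Il10ra was the 1 gene of the 8 whose groups were apart, as were 12% of all genes. Its lowest value at 72 h, 78.3 CPM, lay just above the highest PBS value, 78.1 CPM, and its log2 change was 0.58 (SE 0.31, edgeR adjusted p = 0.488).

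**Figure D2:**
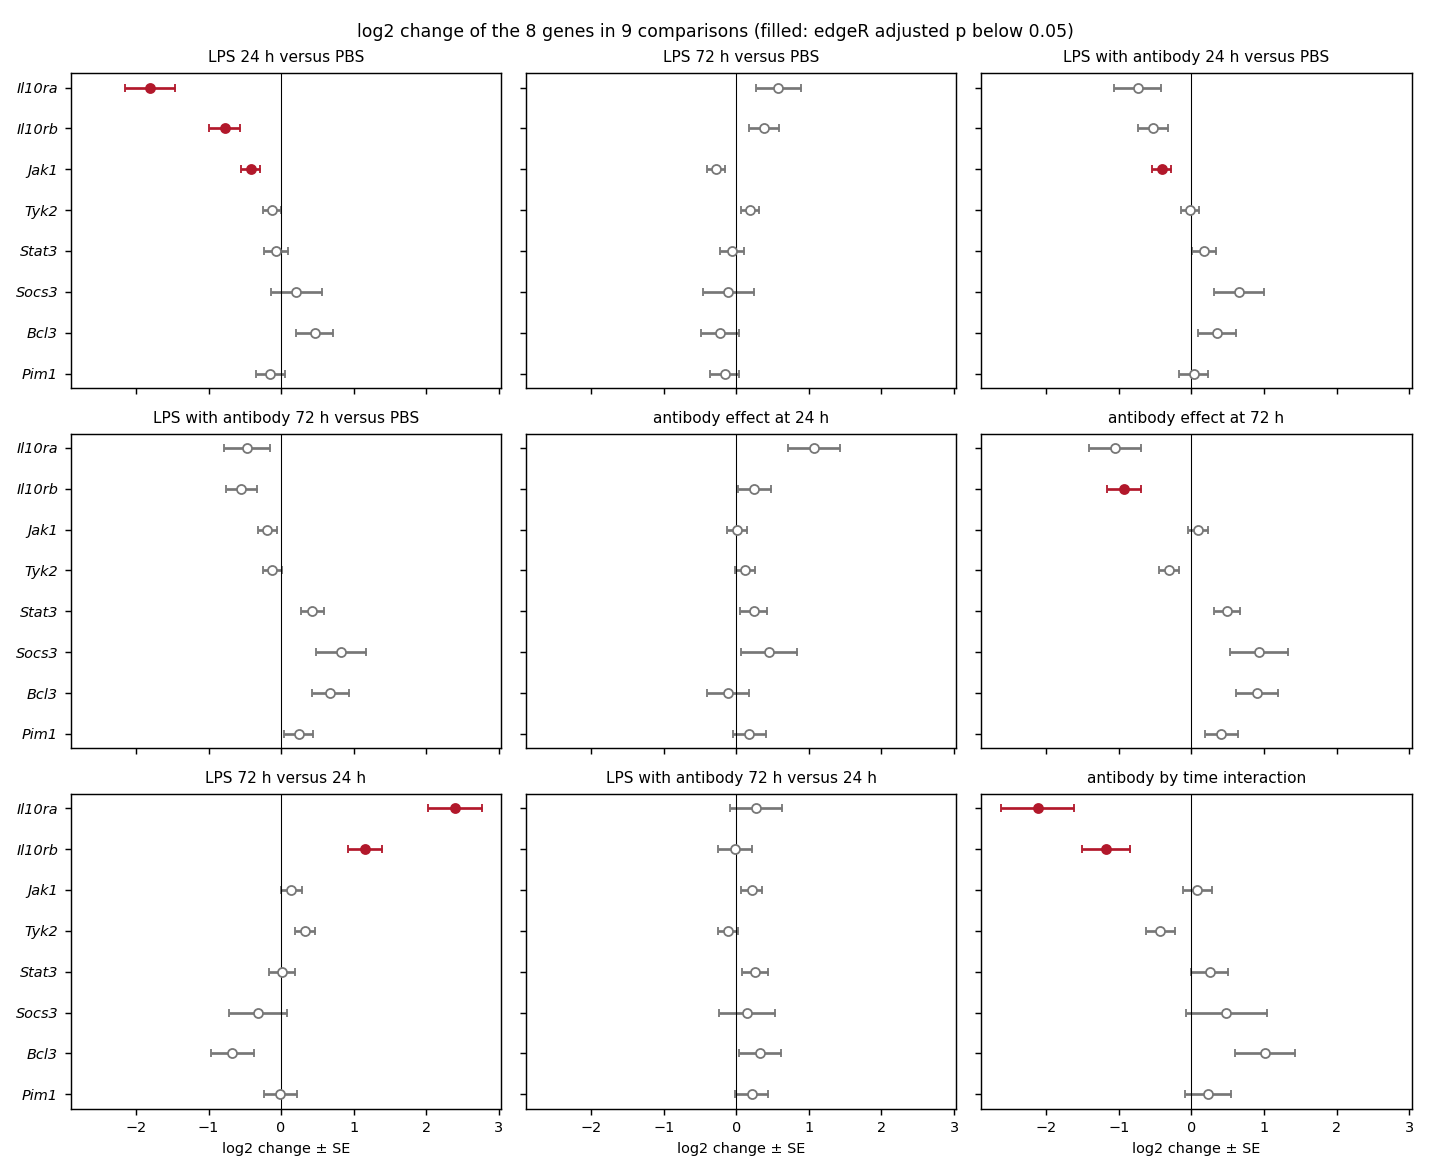
The log2 change of each of the 8 genes in 9 comparisons, as points with whiskers of 1 SE, from edgeR's fit of all 17 libraries. Filled red points are the 9 results with an adjusted p below 0.05. They are Il10ra and Il10rb in LPS 24 h versus PBS, LPS 72 h versus 24 h and the interaction, Il10rb in the antibody effect at 72 h, and Jak1 at 24 h against PBS with and without antibody.

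With LPS and the antibody at 24 h, values of the receptor chains varied more between libraries than with LPS alone at 24 h. Il10ra in LPS with antibody at 24 h was 47.5, 17.6 and 35 CPM, and Il10rb was 42.5, 38.1 and 66.1 CPM. Both groups overlapped the PBS libraries. The log2 changes from PBS were -0.74 for Il10ra (edgeR adjusted p = 0.106) and -0.53 for Il10rb (edgeR adjusted p = 0.0758), and voom with quality weights called both (-1.01 and -0.57). Jak1 was 209, 192 and 193 CPM, below every PBS library, and was the 1 of 8 genes called (log2 change -0.41, SE 0.13, edgeR adjusted p = 0.034), where 24.2% of all genes were called. The Jak1 call was lost in 7 of the 8 fits that left out 1 library, where the highest adjusted p was 0.117, with no filter on low counts (adjusted p = 0.0653) and with the replicate block (adjusted p = 0.0996). In the same comparison 7 of the 13 monocyte-macrophage markers, 6 of the 10 HSPC markers, 2 of the 8 B-lymphoid markers and 2 of the 8 T and NK markers were called lower, and 1 HSPC marker, Ly6a, higher. Their part in the lower Jak1 was not tested.

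Set directly against LPS alone at 24 h, none of the 8 genes was called, and none of the 14920 either (0%). Before adjustment p was below 0.05 for 273 genes in all and for 1 of the 8, Il10ra. Its log2 difference was 1.07 (SE 0.362, unadjusted p = 0.00948 in edgeR's quasi-likelihood test, adjusted p = 1), which ranked 30 among all genes by p-value. Antibody library 2, at 17.6 CPM, lay within the LPS libraries, and libraries 1 and 3, at 47.5 and 35 CPM, lay above them. DESeq2 called 1 gene of the whole table and voom called none of the 8. The other 7 genes had log2 differences of -0.11 to 0.45.

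At 72 h the groups with and without antibody stood apart in the receptor chains. Il10rb was 33.6, 50.5 and 60.5 CPM with antibody, all below the 90.4 to 93.8 CPM of LPS alone. The log2 difference was -0.93 (SE 0.233, edgeR adjusted p = 0.0157), 1.91-fold lower, and 15.1% of all genes were called, 8.64% higher and 6.48% lower. Il10rb was the 1 gene of the 8 called. The call was lost without LPS library 1 (-0.94, adjusted p = 0.0545) and without antibody library 1 (-0.68, adjusted p = 0.0728).

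Il10ra was 59.9, 27.7 and 32.8 CPM with antibody at 72 h, below every LPS library. The log2 difference was -1.05 (SE 0.356), close to the threshold (edgeR adjusted p = 0.057). It was called without antibody library 1 (-1.42, adjusted p = 0.0292), with upper-quartile scaling (-1.14, adjusted p = 0.0452), by DESeq2 (-1.06, adjusted p = 0.021) and by voom with quality weights (-1.38, adjusted p = 0.00186). In all it was called in 1 of 6 fits that left out 1 library and in 4 of 8 other settings. Of these 4, 1 left out both antibody libraries numbered 1 and was chosen after seeing the data. Over those 6 fits the difference was -1.42 to -0.8 (edgeR adjusted p up to 0.178). Antibody library 1 held the lowest Il10rb and the highest Il10ra of its group.

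Stat3 was 297, 172 and 191 CPM with antibody at 72 h and 161, 152 and 157 CPM with LPS alone. The groups were apart, library 1 was far above the others, and the log2 difference was 0.49 (SE 0.183, edgeR adjusted p = 0.0804). Libraries of both groups were apart for 3 of the 8 genes, Il10ra, Il10rb and Stat3, and for 33.2% of all genes.

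The genes downstream of STAT3 had positive differences that did not pass. Socs3, the feedback inhibitor with the motif before its RefSeq start, was 25.7, 11 and 19.2 CPM with antibody and 12.2, 10.6 and 6.58 CPM without. Its log2 difference was 0.93 (SE 0.396, edgeR adjusted p = 0.116). Antibody library 2 overlapped the LPS libraries. Bcl3 was 24.1, 8.59 and 18 CPM with antibody and 9.99, 8.11 and 9.14 CPM without, with a log2 difference of 0.90 (SE 0.293, edgeR adjusted p = 0.0503). Again library 2 lay within the LPS libraries, and DESeq2 called the gene (adjusted p = 0.0263). Without antibody library 2, Bcl3 (1.25, adjusted p = 0.00616) and Stat3 (0.68, adjusted p = 0.0301) were both called. Each was called in only 1 of the 6 fits that left out 1 library. Across those fits Bcl3 ran from 0.6 to 1.25 (edgeR adjusted p up to 0.203) and Stat3 from 0.25 to 0.68 (up to 0.33).

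Pim1, which encodes a serine/threonine kinase, was 242, 195 and 272 CPM with antibody at 72 h and 208, 185 and 143 CPM without. The groups overlapped, and the log2 difference was 0.41 (edgeR adjusted p = 0.226). Tyk2 had a log2 difference of -0.31 (edgeR adjusted p = 0.133) and Jak1 of 0.09. Before adjustment p was below 0.05 for 6 of the 8 genes and for 4852 of the 14920.

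In the same comparison 2 of the 13 monocyte-macrophage markers, Csf1r and Cx3cr1, and 1 of the 10 HSPC markers, Cd34, were called lower. The monocyte-macrophage sum was 504 to 872 CPM with antibody and 718 to 1390 CPM without, and the HSPC sum was 1090 to 1730 against 1660 to 2220 CPM. The HSPC sum of 1730 CPM was that of antibody library 1, in which Ly6a alone was 632 CPM, against 36.3 to 86.4 CPM in the other libraries of both groups. The part of these markers in the lower receptor levels was not tested.

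**Figure D3:**
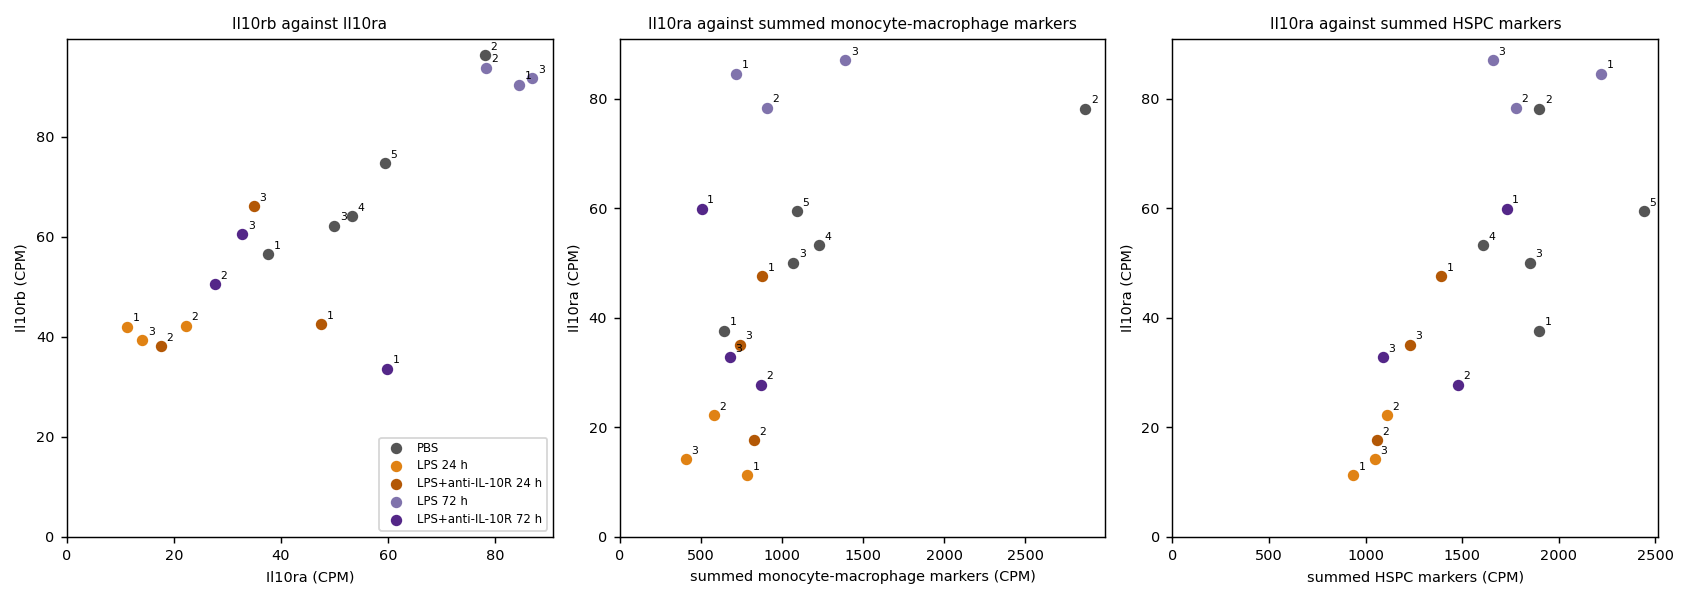
Each point is 1 of the 17 libraries, coloured by group and numbered by replicate. The left panel sets Il10rb against Il10ra, the middle panel sets Il10ra against the summed monocyte-macrophage markers, and the right panel sets it against the summed HSPC markers, all in CPM on linear axes from 0. The 3 libraries of LPS at 72 h lie at 78.3 to 87 CPM of Il10ra with marker sums of 718 to 1390 CPM, and PBS library 2 lies at 78.1 CPM with a sum of 2870 CPM. The antibody libraries numbered 1 have less Il10rb for their Il10ra than the others.

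Against PBS, LPS with antibody at 72 h gave no call among the 8 genes in edgeR, where 13.2% of all genes were called. Before adjustment p was below 0.05 for 4 of the 8: Il10rb (-0.55, adjusted p = 0.0869), Stat3 (0.43, adjusted p = 0.0851), Socs3 (0.82, adjusted p = 0.116) and Bcl3 (0.68, adjusted p = 0.0811). DESeq2 called 0 of the 8 and voom with quality weights called 1, Il10ra (-0.76, adjusted p = 0.0481). Between 24 h and 72 h with the antibody, none of the 8 was called and none of all genes (0%). Before adjustment p was below 0.05 for 0 of the 8 and for 635 of all genes, and DESeq2 called 2 genes in all. Il10ra had a log2 change of 0.27 (SE 0.355) and Il10rb of -0.02 (SE 0.232) over that interval.

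The test of the difference between both antibody effects, an interaction of antibody and time, called 2 of the 8 genes, both lower, against 6.35% of all genes called and 2.32% called lower. The antibody effect on Il10ra at 72 h was lower than that at 24 h by 2.12 on the log2 scale (-2.12, SE 0.508, edgeR adjusted p = 0.0258). For Il10rb the interaction was -1.18 (SE 0.329, edgeR adjusted p = 0.0452). Both calls were lost with the replicate number as a block (adjusted p = 0.0698 and 0.0737) and in a fit of only the 4 LPS groups (adjusted p = 0.0619 and 0.0782). On leaving out 1 library, the Il10ra call was kept in 5 of 12 fits and the Il10rb call in 2 of 12, with negative values throughout. The other 6 genes had interactions of -0.43 to 1.01, none called. Of the marker genes of monocytes and macrophages, Csf1r was also called lower in the interaction, and its part was not tested.

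Ordered by mean level, Il10ra was highest with LPS at 72 h (83.3 ± 4.47 CPM, SD, n = 3), followed by PBS (55.6 ± 14.8, n = 5), LPS with antibody at 72 h (40.1 ± 17.3, n = 3) and at 24 h (33.3 ± 15, n = 3), and LPS at 24 h (15.8 ± 5.68, n = 3). No neighbouring pair in this order was called different, while its ends were. The spread of Il10ra was itself unequal: its coefficient of variation was 5.36% with LPS at 72 h, 43.1% with LPS and antibody at 72 h and 45% with LPS and antibody at 24 h. It was 35.9% with LPS at 24 h and 26.7% with PBS, so LPS at 72 h was the group with the least spread. For Il10rb the values were 1.9% with LPS at 72 h, 28.3% and 30.8% with LPS and antibody at 72 h and 24 h, 3.91% with LPS at 24 h and 22.2% with PBS. Per kilobase of exon, Il10ra and Il10rb had like levels with LPS at 72 h, 23.8 ± 1.28 and 24.1 ± 0.458 CPM per kb (SD, n = 3). With LPS at 24 h Il10ra had 4.53 ± 1.62 and Il10rb 10.8 ± 0.423 CPM per kb (SD, n = 3).

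The antibody libraries numbered 1, at 24 h and at 72 h, stood apart from the other 15, in markers of cell types as well as in genes of this route. Their summed erythroid markers were 2280 and 1270 CPM against 65 to 987 CPM in the others, and their summed T and NK cell markers 73.7 and 46.5 CPM against 104 to 267 CPM. Ly6a, an HSPC marker, was 530 and 632 CPM in them and 32.6 to 266 CPM in the others. Jak2, the kinase of several cytokine receptors, was 148 and 194 CPM in them and 44.6 to 102 CPM in the others, and the inhibitor Socs1 was 11.2 and 16.7 CPM against 1.46 to 6.48 CPM. Stat3 was highest in the same libraries, 234 and 297 CPM. The labels do not say what these libraries share, and the part of the cell types in these levels was not tested. Without both of them the antibody difference at 72 h was -1.42 for Il10ra (edgeR adjusted p = 0.0162) and -0.68 for Il10rb (edgeR adjusted p = 0.0668), and the Il10rb interaction was -1.03 (edgeR adjusted p = 0.0976).

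**Figure D4:**
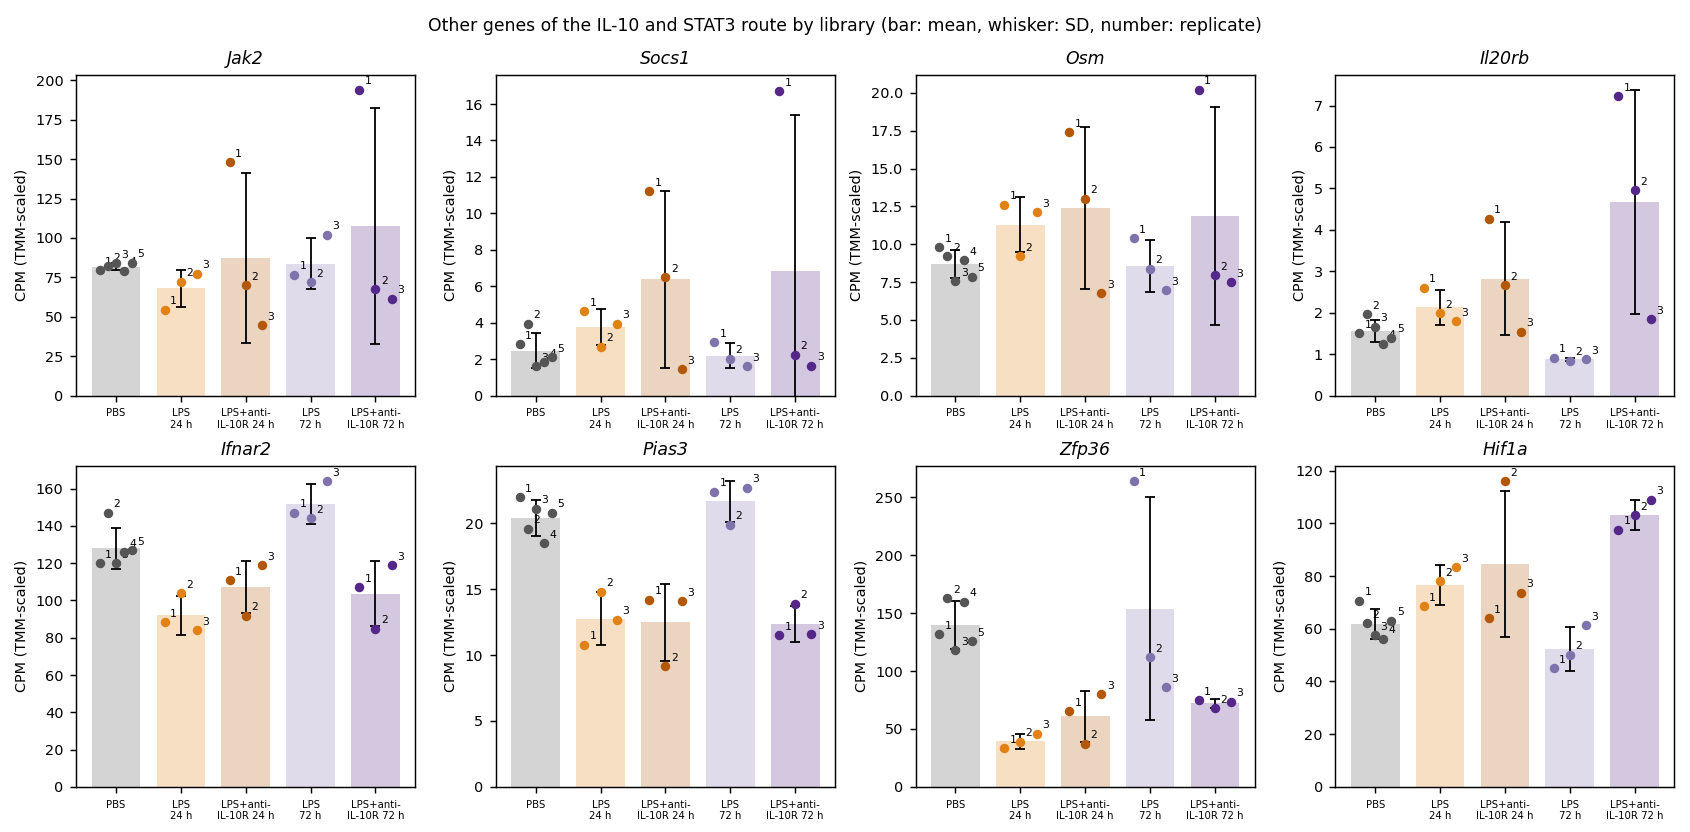
TMM-scaled CPM of 8 other genes of the IL-10 and STAT3 route in each of 17 libraries, on linear axes from 0, with bars for group means, whiskers for SD and replicate numbers beside the points. Jak2 and Socs1 are highest in the antibody libraries numbered 1, with Jak2 at 148 and 194 CPM. Pias3 is 18.5 to 22.7 CPM with PBS and LPS at 72 h and 9.14 to 14.8 CPM in the other 3 groups.

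Other parts of the route were read from a list of 32 ligands, receptors, kinases, STATs and inhibitors, of which 25 were tested. With LPS at 24 h, 1 was called higher and 7 lower (32%, against 37.6% of all genes), with a median log2 change of -0.27 against -0.03 over all genes. The share called was below that of all genes. The inhibitor Socs2 was 3.79 to 8.58 CPM with PBS and 0.742 to 2.04 CPM with LPS at 24 h (log2 change -2.06, edgeR adjusted p = 0.00133). Lifr, the receptor of leukemia inhibitory factor, had a change of -1.33 that was called in only 2 of 8 fits leaving out 1 library, and Cish, another SOCS family inhibitor, one of -0.93 called in 5 of 8. Ifnar2, a chain of the type I interferon receptor, fell by 0.48 on the log2 scale (edgeR adjusted p = 0.00943). Ptpn2, a phosphatase acting on JAK kinases, was the 1 gene higher (0.51, edgeR adjusted p = 0.0105), called in 7 of 8 fits leaving out 1 library. With the replicate block Ptpn2 (0.45, adjusted p = 0.0542), Lifr (-1.55, adjusted p = 0.0671) and Cish (-0.84, adjusted p = 0.0546) were not called, and the list had 4 called genes, all lower.

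The product of Pias3 binds and inhibits STAT3. Pias3 was 18.5 to 22 CPM with PBS, 10.8 to 14.8 CPM with LPS at 24 h (log2 change -0.68, edgeR adjusted p = 0.00453) and 19.9 to 22.7 CPM with LPS at 72 h. With antibody at 24 h it was 14.2, 9.14 and 14.1 CPM, overlapping LPS alone and below every PBS library (log2 change from PBS -0.71, edgeR adjusted p = 0.00856). Without antibody library 2 of that time the adjusted p was 0.054. With antibody at 72 h it was 11.5, 13.9 and 11.6 CPM, below every library of LPS alone at that time (log2 difference -0.81, edgeR adjusted p = 0.00807). In LPS 72 h versus 24 h the list had 6 genes called higher and 2 lower (32%, near the 31.1% of all genes). With upper-quartile factors 8 were higher and 0 lower. Among those higher were Il6st, the shared receptor chain of the IL-6 family (1.57, edgeR adjusted p = 0.0269), Il6ra (1.08, edgeR adjusted p = 0.0181) and Pias3 (0.76, edgeR adjusted p = 0.00461). Of these, Il6st and Il6ra were each called in 3 of 6 fits leaving out 1 library. The 2 lower were Il20rb (-1.26, called in 0 of 6 such fits) and the phosphatase gene Ptpn11 (-0.55, called in 2 of 6).

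For the antibody difference at 72 h the list had 3 genes called higher and 2 lower (20%, against 15.1% of all genes), with a median of 0.26 against 0.01 over all genes. With upper-quartile factors, and with the replicate block, 2 were higher and 3 lower, and without both antibody libraries numbered 1, a setting chosen after seeing the data, 1 was higher and 1 lower. Il20rb, a receptor chain of the IL-20 family, was 7.23, 4.95 and 1.84 CPM with antibody and 0.845 to 0.916 CPM without (log2 difference 2.39, SE 0.456, edgeR adjusted p = 0.00428). All 3 antibody libraries were higher. Ptpn11 was 168 to 213 CPM with antibody and 104 to 148 CPM without (0.62, edgeR adjusted p = 0.0183), called in 3 of 6 fits leaving out 1 library. Lif was called (3.39, edgeR adjusted p = 0.0459) through 1 library alone: antibody library 1 had 12.4 CPM, and the others of both groups 0.219 to 0.825 CPM. The 2 lower were Pias3 and Ifnar2 (-0.55, edgeR adjusted p = 0.0181), and Ifnar2 was also called in the interaction (-0.77, edgeR adjusted p = 0.035). On leaving out 1 library the Ifnar2 calls were kept in 2 of 6 and 3 of 12 fits. LPS with antibody at 24 h and at 72 h had 4 called genes each against PBS (16%, against 24.2% and 13.2% of all genes), and with the replicate block 1 and 0.

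A second list held 25 other genes known to be induced through IL-10 or STAT3, all tested. With LPS at 24 h, 3 were called higher and 7 lower (40%, near the 37.6% of all genes), with a median log2 change of -0.10 against -0.03 over all genes. The transcription factor gene Cebpb was 3.51 to 9.52 CPM with PBS and 14.3 to 27.9 CPM with LPS at 24 h (2.84-fold higher, edgeR adjusted p = 0.00299), and Batf (0.75) and Myc (0.57) were also called higher. Hmox1, which encodes heme oxygenase and is abundant in macrophages, was 59.7 to 521 CPM with PBS and 9.13 to 18.1 CPM with LPS at 24 h (log2 change -3.68, edgeR adjusted p = 0.00952). Its highest value was in PBS library 2, the library with the highest monocyte-macrophage sum. The part of macrophages in the lower Hmox1 was not tested. Zfp36, which encodes an mRNA-destabilizing protein, was 118 to 163 CPM with PBS and 33.3 to 45.9 CPM with LPS at 24 h (-1.83, edgeR adjusted p = 0.000892), and Fos was also called lower (-1.29). With the replicate block this list had 2 genes higher and 3 lower. In that fit Myc (adjusted p = 0.114) and Fos (adjusted p = 0.0527) were not called, and on leaving out 1 library they were called in 2 of 8 and 6 of 8 fits.

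In LPS 72 h versus 24 h this second list had 6 genes called higher and 3 lower (36%, against 31.1% of all genes), and in a fit of only the groups compared 3 higher and 5 lower. Zfp36 had the greatest rise, 3.9-fold (edgeR adjusted p = 0.000803), and Cebpb the greatest fall (-1.19, edgeR adjusted p = 0.027), which was called in 2 of 6 fits leaving out 1 library. For the antibody difference at 72 h it had 3 higher and 2 lower (20%, against 15.1% of all genes). The balance turned to 1 higher and 2 lower with DESeq2's size factors, with upper-quartile factors and with no filter, where Myc and Sbno2 were not called. By DESeq2's Wald test it was 5 higher and 2 lower, by voom 4 and 4, and with only the groups compared 3 and 0. With the replicate block it was 2 and 1, and without both antibody libraries numbered 1 it was 1 and 2. Hif1a, a hypoxia response factor, was 97.6, 103 and 109 CPM with antibody and 45, 50.2 and 61.3 CPM without (0.98, edgeR adjusted p = 0.00409), with no overlap. Zfp36 was 67.9 to 74.9 CPM with antibody and 264, 112 and 85.9 CPM without (-1.09, edgeR adjusted p = 0.0386), and it was called in 2 of 6 fits leaving out 1 library. The interaction called Zfp36 too (-1.72, edgeR adjusted p = 0.043), a call kept in 3 of 12 such fits. Both lists had 0 called genes in edgeR for the antibody difference at 24 h, for LPS at 72 h against PBS and for 72 h against 24 h with antibody.

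The genes whose levels followed each member most closely were found from Pearson's r of log2 CPM over the 17 libraries, given as a description. These libraries share group and composition, and r includes the differences between groups. Il10ra was most like Cdkn1b, a cell cycle inhibitor (r = 0.956), Tmem71 (0.955) and Hbp1 (0.955). Cdkn1b was 34.3 to 43.4 CPM with PBS, 16.2 to 29.4 CPM with LPS at 24 h and 50.3 to 58.2 CPM with LPS at 72 h. Il10rb was most like Gm21970 (0.972), which shares exonic bases with it, followed by Ang (0.957) and Rgs2 (0.954). Jak1 was most like Ago1 (0.954), Arhgef5 (0.942) and Phlpp1 (0.937).

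Tyk2 was most like Gm15243 (0.896), Myo1g (0.887) and Hmgxb4 (0.875). Stat3 was most like Tlk2 (0.933), Rab11fip1 (0.928) and Fbn1 (0.925), and all 3 were highest in the antibody libraries numbered 1. Socs3 had the nearest gene in Ptgs2 (0.786), followed by Spsb1 (0.780) and 9330161L09Rik (0.777). Bcl3 was most like Uspl1 (0.868), 9930104L06Rik (0.849) and Spata5 (0.837). Pim1 was most like Gm26885 (0.860), its antisense neighbour with shared bases, and then Chst11 (0.721) and Relt (0.714).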

How the data were processed

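The authors deposited 1 table of raw read counts per gene, whole numbers, for 17 libraries. Alignment to GRCm38 with HISAT2 2.2.0 and counting with featureCounts 2.1.1 (Subread) are named in the submitters' processing notes. The annotation, the strand setting and the treatment of reads matching several genes are not given in the sources used here, so overlapping genes may share reads. There were 0 columns that could not be matched to a sample. Groups and replicate numbers came from the sample titles.

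The tests used edgeR 4.0.16 (R 4.3.3). filterByExpr, with a minimum count of 10 and a minimum total of 15, kept 14920 genes, which hold 99.9% of all counts. Scaling was by TMM, and the quasi-likelihood test (glmQLFit, glmQLFTest) was run across all genes in 1 fit of 17 libraries, with Benjamini-Hochberg adjustment. Standard errors are the absolute log2 change divided by the square root of F. CPM are TMM-scaled, and CPM per kb divides them by exonic length in GENCODE M21. For r, log2 CPM had a prior count of 2. The fitting code was checked on simulated data.

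The 8 members, the lists and the markers were chosen with earlier results of these data known. The genes named are the 8 members, of each list the called genes with the greatest rise and fall (at most 3 each way) and at most 3 uncalled ones per comparison, and for each member the 3 genes with the highest r. The lists were written from general knowledge; marker genes are named only beside a member. The values of 1 listed gene are not reported here. Alternatives were scaling by DESeq2's size factors or by upper quartiles, the Wald test of DESeq2 1.42.0, limma 3.58.1's voom with quality weights, no filter, only the groups compared, the replicate number as a block and leaving out each library. A block in a fit of PBS and LPS 24 h only, and leaving out both antibody libraries numbered 1, were chosen after seeing the data. The labels do not say that a replicate number marks a shared mouse, day or run. Deviations of same-numbered libraries from their group means correlated above 0.1 in all 3 pairs only between PBS and LPS at 24 h (r = 0.191, 0.188 and 0.158). Between the antibody groups at both times r was 0.723, -0.022 and 0.697 for numbers 1 to 3. So the block is given beside that comparison where it changes a call.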

Additional observations from a re-analysis of the deposited data

Results flagged for a closer look

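A test of the difference between the antibody effects at 24 h and at 72 h called both receptor chains, and neither call held throughout. For Il10ra the antibody difference was 1.07 at 24 h and -1.05 at 72 h, and the interaction was -2.12 on the log2 scale (SE 0.508, edgeR adjusted p = 0.0258). For Il10rb the differences were 0.25 and -0.93, and the interaction was -1.18 (SE 0.329, edgeR adjusted p = 0.0452). Neither difference was called at 24 h. Both interaction calls were lost with the replicate block (adjusted p = 0.0698 and 0.0737) and in a fit of only the LPS groups (adjusted p = 0.0619 and 0.0782), and that of Il10rb with no filter (adjusted p = 0.0581). On leaving out 1 library they were kept in 5 of 12 and 2 of 12 fits. Adjusted p-values on leaving out 1 library ran from 0.00591 to 0.0658 for Il10ra and from 0.0235 to 0.118 for Il10rb. Among the 5 PBS libraries, no value of the 8 genes lay far enough from the others to be singled out, and groups of 3 were not examined in this way.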

How the results depend on the processing

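Of the 72 results for single members, 48 kept sign and call under those of 9 other settings that applied to them, 7 or 8 for each. These settings include leaving out both antibody libraries numbered 1 and the block in PBS and LPS 24 h only. On leaving out any single library, 41 of the 72 kept sign and call. Of the 9 called results, both receptor chains in LPS 24 h versus PBS and in LPS 72 h versus 24 h kept their calls in every fit run. The cause of the changes below was not tested. Groups of 3 libraries limit all calls.

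With upper-quartile factors, 2 members were called in LPS with antibody 24 h versus PBS and 2 for the antibody effect at 72 h. Signs turned for Pim1 in LPS with antibody 24 h versus PBS (-0.08) and in LPS 72 h versus 24 h (0.11), and for Jak1 in the interaction (-0.02). In LPS 24 h versus PBS the median over all tested genes shifted with these factors from -0.03 to -0.16, and the share of higher calls from 50.7% to 36.8%. That share went from 48.3% to 32.5% and from 51.4% to 32.8% for LPS with antibody at 24 h and 72 h versus PBS. It went from 57.1% to 42.4% for the antibody effect at 72 h, from 47.2% to 59.2% for LPS 72 h versus 24 h and from 63.5% to 49.7% for the interaction.

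DESeq2's Wald test called 178 genes in LPS 72 h versus PBS where edgeR called 3, 1 gene for the antibody effect at 24 h, 2 in LPS with antibody 72 h versus 24 h, and 1709 against 947 in the interaction. It called 3 members for the antibody effect at 72 h. With voom, 2170 genes were called in LPS 72 h versus PBS (1 member), 3053 in LPS with antibody 72 h versus PBS (1 member) and 4433 for the antibody effect at 72 h (2 members). It called 1585 genes in the interaction, and 3 members in LPS with antibody 24 h versus PBS. Signs turned with voom for Jak1 in the antibody effect at 24 h (-0.09), and in LPS 72 h versus 24 h for Stat3 (-0.05) and Pim1 (0.04). They also turned for Il10rb (0.12), Socs3 (-0.34) and Bcl3 (-0.3) in LPS with antibody 72 h versus 24 h, and for Pim1 in the interaction (-0.04).

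With no filter, 0 members were called in LPS with antibody 24 h versus PBS, where Tyk2 turned to 0.01, and 1 member and 617 genes in the interaction. With only the groups compared, 99 genes were called in LPS 72 h versus PBS, 1123 for the antibody effect at 72 h, and 286 genes and 0 members in the interaction.

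With the replicate block, 0 genes were called in LPS 72 h versus PBS, 1721 genes and 0 members in LPS with antibody 24 h versus PBS (Pim1 -0.02), 374 genes in LPS with antibody 72 h versus PBS, and 333 genes and 0 members in the interaction. Apart from the Jak1 and interaction calls given with the results, the block changed no other call of a member. With the block in PBS and LPS 24 h alone, Jak1 had -0.4 (adjusted p = 0.0831).

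Without both antibody libraries numbered 1, 2 members were called in LPS with antibody 24 h versus PBS (Tyk2 0.03, Stat3 -0.03), 1164 genes in LPS with antibody 72 h versus PBS, and 1 member and 336 genes in the interaction. Jak1 turned to -0.03 for the antibody effect at 24 h, and Il10rb to 0.11 and Socs3 to -0.12 in LPS with antibody 72 h versus 24 h.

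On leaving out 1 library, counts of called genes ran from 3361 to 5443 in LPS 24 h versus PBS (lowest without LPS library 1), 0 to 3 in LPS 72 h versus PBS, and 877 to 3420 in LPS with antibody 24 h versus PBS (lowest without its library 2). They ran from 583 to 2066 in LPS with antibody 72 h versus PBS (lowest without its library 3), 769 to 2279 for the antibody effect at 72 h (lowest without LPS library 1) and 231 to 1544 in the interaction (lowest without LPS 72 h library 1). Members called ran from 0 to 1 in LPS with antibody 24 h versus PBS, 0 to 2 in LPS with antibody 72 h versus PBS, 0 to 3 for the antibody effect at 72 h and 0 to 2 in the interaction.

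Signs turned in some of these fits for uncalled members only. In LPS 24 h versus PBS the ranges were -0.28 to 0.44 for Socs3 and -0.23 to 0.02 for Pim1, and in LPS 72 h versus PBS -0.3 to 0.1 for Socs3. In LPS with antibody 24 h versus PBS they were -0.04 to 0.03 for Tyk2, -0.04 to 0.32 for Stat3 and -0.15 to 0.21 for Pim1. For the antibody effect at 24 h they were -0.02 to 0.4 for Il10rb, -0.09 to 0.09 for Jak1 and -0.31 to 0.05 for Bcl3. In LPS 72 h versus 24 h they were -0.03 to 0.05 for Stat3, -0.52 to 0.15 for Socs3 and -0.14 to 0.1 for Pim1. In LPS with antibody 72 h versus 24 h they were -0.14 to 0.61 for Il10ra, -0.22 to 0.24 for Il10rb, -0.02 to 0.47 for Stat3, -0.15 to 0.44 for Socs3 and -0.01 to 0.65 for Bcl3.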
